A study of Homo sapiens with 8 samples.

Results

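The DNA regions bound by AML1-ETO after 12 h and after 48 h of induction were compared as deposited peak lists. The members were all peaks of the AML1-ETO ChIP libraries on chromosomes 1 to 22, 70063 at 12 h and 104677 at 48 h. Together they were 174740 of the 235408 peaks in the 4 ChIP libraries of the series, the others being ETO2-GLIS2 peaks or AML1-ETO peaks off these chromosomes. A peak was called kept if it shared at least 1 bp with a peak of the other time, and 12 h only or 48 h only if it shared none.

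The cells were U937, an established monocytic leukaemia line, in the form of a single stable clone that carried HA-tagged AML1-ETO on a retroviral Tet-inducible vector. Doxycycline at 5 µg/ml induced the protein, and anti-HA magnetic beads precipitated it from formaldehyde-fixed chromatin. Each time had 1 ChIP library and 1 input library, with no replicate and no uninduced or empty-vector ChIP. The titles and treatment labels gave 12 h for the earlier libraries, while the protocol text attached to them named 48 h, and the titles were followed here. A second clone carrying HA-tagged ETO2-GLIS2, treated the same way at both times, served for comparison. With 1 library at each time no difference could be tested, and time, sequencing depth and library preparation cannot be told apart. The study lists more reads and a higher mapping rate for the 48 h ChIP library than for the 12 h one. The intervals given below are exact 95% Clopper-Pearson intervals over peaks, which cover counting error only.

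AML1-ETO arises from the t(8;21) translocation of acute myeloid leukaemia. It joins the Runt domain of RUNX1, which binds DNA with its partner CBFB, to nearly all of the corepressor RUNX1T1, also called ETO. The Runt domain reads a short core element, searched here as TGTGGT or TGCGGT on either strand. The ETO part recruits NCOR, SIN3A and histone deacetylases, and contacts E proteins, so that the fusion can act on RUNX1 sites in chromatin also held by ETS, C/EBP and AP-1 factors.

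The sequences under some of the strongest summits are shown as examples and do not represent their classes. The lines give 101 bp of the plus strand of GRCh37 (hg19) centred on the summit, with Runt core matches in capitals. The first group holds the 3 repeat arrays among the 5 strongest peaks that were kept at both times, the other 2 being promoters with 1 and 0 core matches in such a window. The arrays lie 4801 bp from the start of FAM99A at chr11:1691848-1691948, in an intron of BAHCC1 at chr17:79399098-79399198, and between genes at chr1:9471193-9471293.
FAM99A region: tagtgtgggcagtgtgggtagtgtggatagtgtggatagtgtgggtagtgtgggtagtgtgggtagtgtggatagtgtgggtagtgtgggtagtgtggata
BAHCC1 intron: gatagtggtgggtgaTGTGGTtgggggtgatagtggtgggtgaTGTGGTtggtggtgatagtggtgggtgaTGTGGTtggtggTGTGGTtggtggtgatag
Chromosome 1 array: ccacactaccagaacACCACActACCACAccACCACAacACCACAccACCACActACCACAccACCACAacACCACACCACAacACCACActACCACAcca

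All 3 were tandem repeats of a unit that contains or resembles the Runt core. The chromosome 1 window held 11 core matches and the BAHCC1 window held 4. The FAM99A window held none, but it held 11 copies of the shorter string TGTGG, which is the core without its last base. How reads that map to more than one place were treated is not given in the sources used here.

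The next group holds peaks seen at 12 h only, ranked 3 and 4 in that class, those ranked 1 and 2 having windows with no core match. They lie in an intron of TBC1D1 at chr4:37948250-37948350 and between genes at chr3:142802769-142802869, with CHST2 as the nearest protein-coding start. The last group holds strong peaks seen at 48 h only, in an intron of EBF1 at chr5:158444981-158445081, in an intron of CHD5 at chr1:6220138-6220238 and at the ASNSD1 promoter at chr2:190525944-190526044.
TBC1D1 intron, 12 h only: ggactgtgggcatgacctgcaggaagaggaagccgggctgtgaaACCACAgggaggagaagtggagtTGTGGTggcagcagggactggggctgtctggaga
CHST2 region, 12 h only: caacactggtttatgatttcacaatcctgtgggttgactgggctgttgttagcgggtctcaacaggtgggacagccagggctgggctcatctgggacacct
EBF1 intron, 48 h only: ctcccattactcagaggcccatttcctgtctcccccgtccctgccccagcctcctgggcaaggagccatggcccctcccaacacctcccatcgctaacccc
CHD5 intron, 48 h only: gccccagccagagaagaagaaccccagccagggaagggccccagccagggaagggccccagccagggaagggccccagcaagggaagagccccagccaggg
ASNSD1 promoter, 48 h only: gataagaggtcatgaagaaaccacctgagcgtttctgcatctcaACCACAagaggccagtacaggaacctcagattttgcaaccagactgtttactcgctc

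The TBC1D1 window held 2 core matches and the ASNSD1 window held 1, while the CHST2, EBF1 and CHD5 windows held none. The CHD5 window was also a tandem repeat, of a unit with no Runt core that carried GGAA, the centre of ETS sites, 4 times. The shares over all peaks are given further on.

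The 48 h list held 1.49 times as many peaks as the 12 h list and covered 1.89 times as much DNA. Peaks covered 50.4 Mb at 12 h and 95.1 Mb at 48 h, and 42.2 Mb was covered at both times. That common part was 83.8% of the 12 h coverage and 44.4% of the 48 h coverage. Most bases covered early were thus also covered late, while most bases covered late had not been covered at 12 h. Of the 48 h coverage, 68.7 Mb lay in kept peaks, which overlap a 12 h peak, and 26.3 Mb in 48 h only peaks.

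Of the 12 h peaks, 51718 were kept and 18345, or 26.2%, had no 48 h peak. Of the 48 h peaks, 38413 were kept and 66264, or 63.3%, had no 12 h peak. The kept numbers differ because 1 wide 48 h peak could cover several 12 h peaks. The pattern held on each chromosome, with 68.1% to 77.2% of the 12 h peaks and 33.3% to 41.9% of the 48 h peaks kept.

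The peaks seen at 1 time were narrow and weak. The median width was 226 bp for 12 h only peaks and 312 bp for 48 h only peaks, against 495 bp and 1165 bp for the kept peaks at 12 h and 48 h. Fold enrichment over input had medians of 3.34 and 3.26 in the 12 h only and 48 h only peaks. The kept peaks had medians of 4.86 at 12 h and 6.52 at 48 h. On the scale of −log10 q, the peak caller's measure of confidence, the medians were 2.998 and 3.47 for the peaks of 1 time and 6.17 and 14.2 for the kept peaks.

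Whether a peak was found again followed its strength. Among the 5000 strongest peaks of each list, all 12 h peaks were kept, and so were all but 1 of the 48 h peaks. The lists were also cut into 10 equal parts by strength. In the strongest part, 99.97% of the 12 h peaks and 99.7% of the 48 h peaks were kept. In the weakest part, 43.6% (42.4 to 44.8%) of the 12 h peaks and 7.21% (6.72 to 7.72%) of the 48 h peaks were kept. The 48 h list fell off early, from 91.1% in part 2 to 33.6% in part 4.

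**Figure D1:**
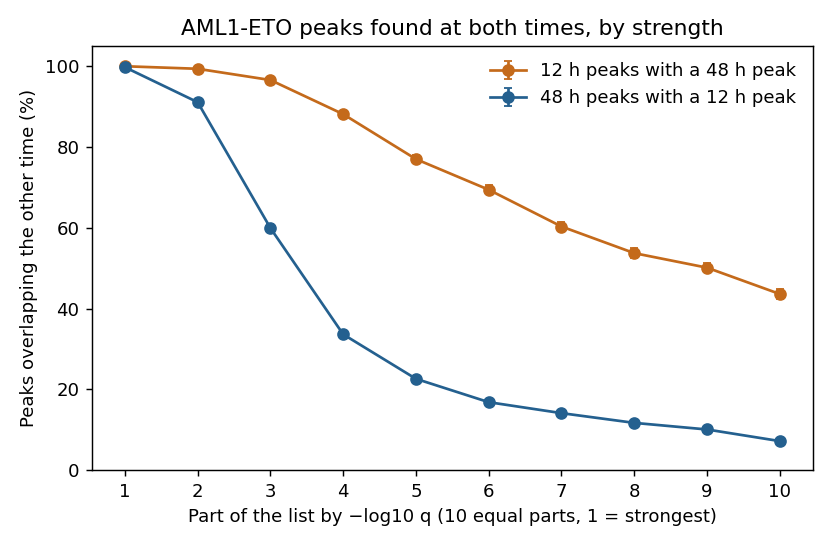
Share of AML1-ETO peaks that overlap a peak of the other time (%, y axis) in each of 10 equal parts of the list ranked by −log10 q (x axis, 1 is the strongest), with exact 95% intervals. The 12 h curve falls from 99.97% to 43.6% and the 48 h curve from 99.7% to 7.21%.

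Stricter lists gave the same order of the times. When both lists were held to −log10 q of 10 or more, 18964 peaks remained at 12 h and 24845 at 48 h. Then 6.55% of the 12 h peaks and 35.0% of the 48 h peaks had no partner. With equal numbers, the 70063 strongest of each list, these shares were 30.5% and 50%. A comparison by summit position was less favourable to the early peaks: 39.1% of the 12 h summits had a 48 h summit within 200 bp.

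Few strong peaks had no counterpart of any strength. At −log10 q of at least 10, 182 of 18964 peaks at 12 h and 2093 of 24845 at 48 h overlapped nothing at the other time. In the full lists 26.2% and 63.3% of peaks had no partner. The best of the 12 h only peaks ranked 6376 of its list, and lay beside the centromere of chromosome 10 with a fold enrichment of 1.31. The best of the 48 h only peaks ranked 2801, with a fold enrichment of 31.6, in an exon of TRIOBP, which encodes an actin-binding protein. The 101 bp at its summit were a tandem repeat with no Runt core.

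The order of the strong peaks was similar but not the same at both times. The 100 strongest 12 h peaks overlapped one of the 100 strongest 48 h peaks in 54 cases, and the 10000 strongest in 83.7% of cases. Across the 25805 pairs in which 1 peak of each time overlapped only the other, Spearman's rho of −log10 q was 0.74. This is a description across regions of 1 genome, measured in 1 library at each time.

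New late peaks lay near early ones. The median distance from a 48 h only peak to the nearest 12 h peak was 2110 bp, and 71.1% lay within 5 kb of one. Points on a regular 50-kb grid over the chromosomes were within 5 kb of a 12 h peak in 14.1% of cases. The 12 h only peaks were likewise close to 48 h peaks, with a median distance of 1172 bp and 71.7% within 5 kb, against 17.99% of the grid. Most peaks of both classes were thus close neighbours of a peak of the other time.

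Over all peaks, kept and unmatched peaks differed in where they lay. A summit within 1 kb of an annotated start site was called promoter. The share was 33.9% (33.4 to 34.4%) of kept peaks by their 48 h summit, 13.7% (13.2 to 14.2%) of 12 h only peaks and 16.1% (15.8 to 16.4%) of 48 h only peaks. Introns held 53.2% of 12 h only peaks and 52.0% of 48 h only peaks, against 40.2% of kept peaks. For 48 h peaks the gap in promoter share was small at like strength, in each bin of −log10 q below 20. At −log10 q from 5 to 10 the share was 19.2% of kept and 17.7% of 48 h only peaks. From 10 to 20 it was 28.7% and 25.4%. At 20 or more it was 51.2% and 31.0%, but that bin has no upper limit. Kept 48 h peaks reached 3081 in it and 48 h only peaks 149, so strength was not alike there. For 12 h peaks the gap was wider, with 29.0% of kept and 12.3% of 12 h only peaks from 5 to 10.

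The 12 h only and 48 h only peaks separated when only strong peaks were taken. Of those with −log10 q of at least 10 and no peak at the other time, 20 of 182, or 10.99% (6.84 to 16.5%), were promoters at 12 h. At 48 h, 549 of 2093, or 26.2% (24.4 to 28.2%), were promoters. Kept 48 h peaks above that cut-off were promoters in 44.7% of cases. They were stronger, with 16221 of them at 20 or more against 316 of the 48 h only peaks. With increasing strength the promoter share of 48 h only peaks went from 14.5% to 31.0%, and that of 12 h only peaks went from 13.6% to 10.0%, with only 30 peaks in the last bin.

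**Figure D2:**
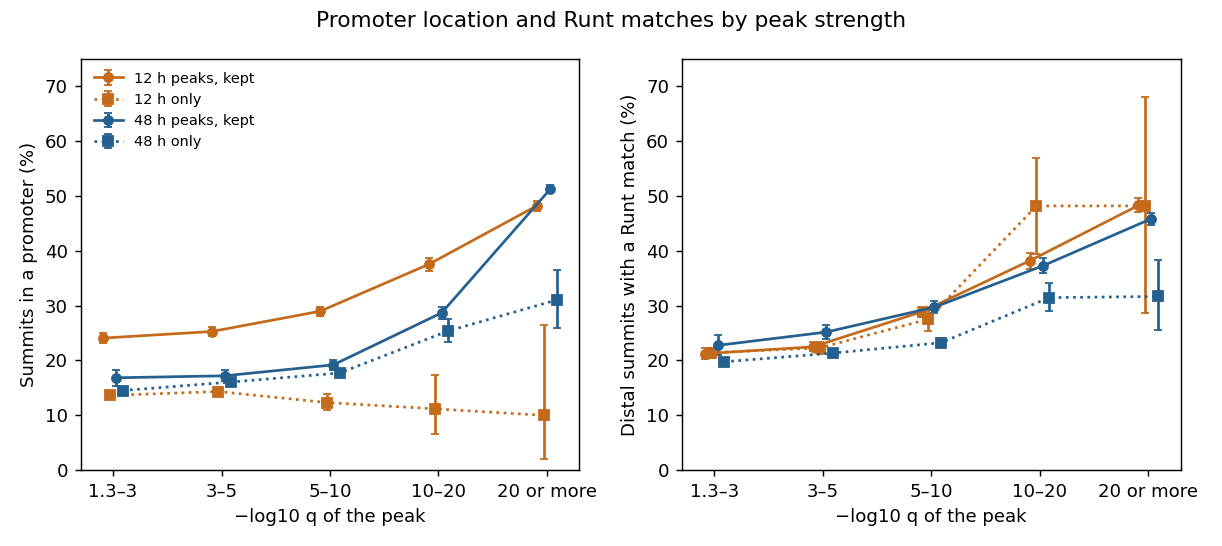
Left, share of summits within 1 kb of a start site (%), and right, share of the other, distal summits with a Runt core match in 200 bp (%), by −log10 q of the peak (x axis) for kept, 12 h only and 48 h only peaks, with exact 95% intervals. At −log10 q from 10 to 20 the promoter share is 11.2% for 12 h only and 25.4% for 48 h only peaks, and the distal Runt share is 48.1% and 31.4%.

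Over all peaks, the Runt core was more frequent under kept summits than under the others. A match lay in the central 200 bp of 31.5% of kept peaks by their 48 h summit, 22.4% of 12 h only peaks and 21.0% of 48 h only peaks. Windows 1 kb to either side of the same summits held a match in 16.7%, 17.7% and 17.5% of cases, and grid windows in 15.3%. Among the strong peaks with no counterpart the order changed, with 46.2% (38.8 to 53.7%) at 12 h only and 28.5% (26.5 to 30.5%) at 48 h only, beside 35.4% of strong kept peaks. At like strength and by their 12 h summits, kept 12 h peaks did not have the higher share. At −log10 q from 5 to 10 it was 26.3% of kept 12 h and 27.1% of 12 h only peaks. From 10 to 20 it was 32.7% and 45.4%. For 48 h peaks from 5 to 10 it was 27.9% of kept and 22.6% of 48 h only peaks.

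The difference between the strong early and strong late peaks was also present away from promoters. In distal peaks with −log10 q of at least 10, a Runt core was found in 48.1% (40.2 to 56.1%) of 162 peaks at 12 h only and in 31.5% (29.2 to 33.9%) of 1544 peaks at 48 h only. Distal kept peaks of that strength had 44.005% at the 12 h summit and 42.6% at the 48 h summit. The interval of the 12 h only share took in both kept shares, while the 48 h only peaks lay below them. The kept peaks were stronger, with 6072 distal kept 12 h peaks at 20 or more against 27 at 12 h only. From 10 to 20 the share was 48.1% (39.5 to 56.9%) of 135 distal 12 h only peaks and 38.2% (36.7 to 39.6%) of distal kept 12 h peaks. At 20 or more it was 48.1% and 48.2%. For 48 h peaks from 10 to 20 it was 31.4% of 48 h only and 37.2% of kept peaks.

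Elements of other factors also differed between these classes. The C/EBP half-site pair, searched as TTGCNNAA on either strand, lay in 25.3% (18.8 to 32.7%) of strong distal 12 h only windows and in 10.8% (9.31 to 12.5%) of strong distal 48 h only windows. Kept peaks of that kind had 16.4% at the 48 h summit, and the flanks of the 3 classes had 10.8%, 8.35% and 8.56%. C/EBP proteins drive granulocyte and monocyte differentiation. Over the grid the same string was in 10.6% of windows.

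AP-1, the FOS and JUN dimer that responds to growth and stress signals, went the other way. Its element, TGACTCA or TGAGTCA, lay in 3.70% (1.37 to 7.89%) of strong distal 12 h only windows and 9.46% (8.04 to 11.03%) of strong distal 48 h only windows. Kept windows had 9.35%, flanks of the 3 classes 2.78%, 3.43% and 3.29%, and the grid 3.04%. The E-box CAGCTG, a site type of E proteins, was in 14.2% of these 12 h only and 20.01% of these 48 h only windows, and their intervals met. GC content was 47.2% in the 12 h only and 53.2% in the 48 h only windows, and its part in the motif shares was not tested.

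The same contrasts were seen in a larger set, the 1243 peaks at 12 h and 8685 at 48 h that were unmatched when both lists were held to −log10 q of at least 10. This set contains all the strong unmatched peaks above, so it is not a separate check. There the C/EBP element was in 21.2% and 9.98%, the AP-1 element in 4.26% and 7.28%, and the Runt core in 38.5% and 29.3%. Promoters were included in this set, and made up 12.6% of the 12 h peaks and 35.9% of the 48 h peaks.

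Arrays of Runt cores were rare, but were found among the strongest peaks. At least 4 matches in 200 bp were found in 5 of the 100 strongest kept 48 h peaks, in 0.513% of all kept 48 h peaks and in 0.0447% of grid windows. The BAHCC1 intron peak, with 75 core matches in 6209 bp, ranked second at both times, with a fold enrichment of 161 at 12 h and 273 at 48 h. The peak near FAM99A ranked first at both times, with 182-fold and 189-fold enrichment.

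Other peaks at the head of the kept list were promoters. The CKAP2 promoter, of a gene for a microtubule-associated protein, had 165-fold enrichment at 12 h and 184-fold at 48 h. NOTCH2 and NOTCH2NLA, near-identical genes between which reads cannot always be placed, had 58.5-fold and 91.9-fold enrichment at 12 h and 93.5-fold and 68.7-fold at 48 h. The promoter of ITGA6, the integrin alpha-6 subunit, had 27.6-fold and 32.1-fold enrichment, and its 48 h peak of 16073 bp overlapped 7 peaks of 12 h. At the very start of the chromosome 5 sequence, a peak of 1777 bp at 12 h and 1778 bp at 48 h had no Runt core and only 11.7-fold and 12.1-fold enrichment.

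The strongest 12 h only peaks lay mostly in introns and between genes. Apart from the centromeric one, the best were between genes on chromosomes 13 and 3, with 12.1-fold and 13.4-fold enrichment at 12 h, and in TBC1D1, a Rab GTPase-activating protein, with 13.4-fold. Others lay in introns of PLCL1, COMMD10 and NEDD4L, a ubiquitin ligase, with 8.84-fold to 10.9-fold enrichment. The best promoters of this class were weaker. GAPT had 8.81-fold enrichment at 12 h, PRKAR2B, a regulatory subunit of protein kinase A, had 8.51-fold, and EIF2D, a translation factor, had 7.63-fold.

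The strongest peaks found only at 48 h, taken from a larger class, had higher values. EBF1, a B-cell transcription factor, had 22.6-fold enrichment 1106 bp from its start site, and CHD5, a chromatin remodeller, had 20.3-fold in an intron. Among promoters, EMC7, of the ER membrane complex, had 15.6-fold enrichment and ASNSD1 had 14.0-fold. GPI, of glycolysis, had 12.1-fold, DHODH, of pyrimidine synthesis, 12.0-fold, and MLLT10, a partner of the DOT1L methyltransferase, 11.5-fold. The strongest unmatched promoter at 12 h had a −log10 q of 18.7, and the lowest of the 10 strongest at 48 h had 34.5. Both sets were picked by this value, from classes of 18345 and 66264 peaks in lists not matched for depth. The comparison therefore describes the lists and is no separate evidence of stronger binding.

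Peaks found at both times were wider at 48 h. Of the 25805 one-to-one pairs, 80.5% were wider at 48 h, and the median width went from 473 bp to 868 bp. The median ratio of widths was 1.53, with quartiles of 1.09 and 2.37. In 52.4% of pairs the 48 h peak contained the whole 12 h peak, and in 50.98% it had grown on both sides.

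The ratio of widths was larger in weak pairs, and the share of wider pairs and the widths in bp were larger in strong ones. Among the 1000 strongest 12 h peaks, the 260 pairs had a median ratio of 1.26, with 91.5% wider at 48 h and medians of 2896.5 and 3894.5 bp. Pairs ranked below 20000 at 12 h had a median ratio of 1.72, with 79.5% wider and medians of 319 and 599 bp. Promoter pairs were wider at 48 h in 89.1% of cases, with a median ratio of 1.60, and distal pairs in 76.4%, with a median ratio of 1.48. Fold enrichment moved less, from a median of 4.86 to 5.52. It went from 6.21 to 9.03 in promoter pairs and from 4.53 to 4.77 in distal pairs.

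**Figure D3:**
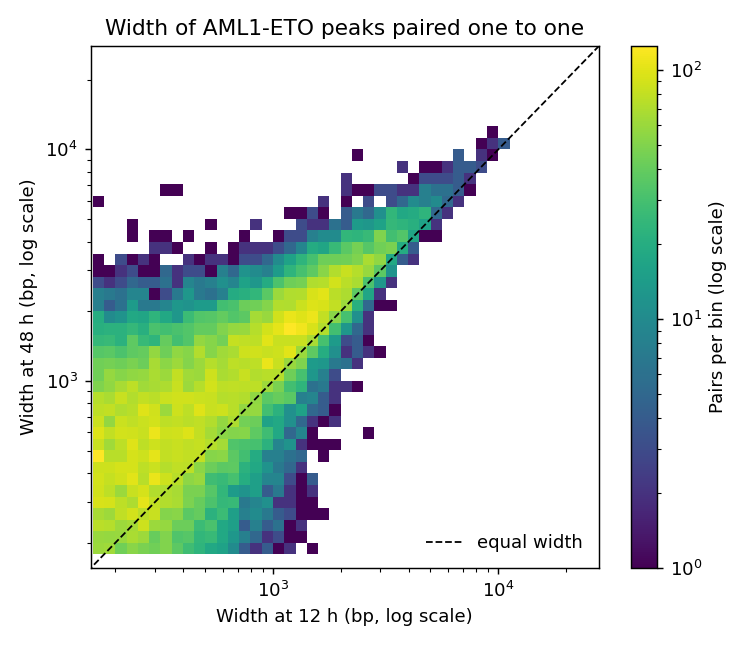
Width at 12 h (bp, x axis, log scale) against width at 48 h (bp, y axis, log scale) for the 25805 one-to-one pairs, coloured by the number of pairs per bin (log scale), with the dashed line at equal width. Most of the pairs, 80.5%, lie above the line, and the spread is widest among narrow 12 h peaks.

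Summits stayed close where binding was strong. The median shift between the 12 h and 48 h summits was 13 bp in the 260 one-to-one pairs among the 1000 strongest 12 h peaks and 90 bp over all pairs. The Runt core lay at 31.0% (30.4 to 31.5%) of the 48 h summits of the pairs and at 29.9% (29.4 to 30.5%) of the 12 h summits. The DNA gained by widening held fewer cores than the DNA bound at both times. In distal pairs there were 1.78 matches per kb in the part covered at both times and 1.08 per kb in the gained part, and in promoter pairs 1.02 and 0.802 per kb.

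Widening at promoters was nearly even on both sides. Over 10918 start sites covered at both times, the median gain was 204 bp upstream and 242 bp downstream. The downstream gain was the larger in 52.1% of them. On the plus strand this share was 52.4% and on the minus strand 51.8%.

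The largest gains in width among the pairs were at strong and weak 12 h peaks alike. At the TACC1 promoter, of a centrosome-associated protein, the peak went from 2367 to 9237 bp and from 23.7-fold to 41.7-fold enrichment. In NEURL1, a ubiquitin ligase, it went from 383 to 6985 bp and from 3.32-fold to 32.4-fold. In LRP8, an apolipoprotein E and reelin receptor, it went from 2089 to 7703 bp, and at ECE1, the endothelin-converting enzyme, from 2052 to 7230 bp.

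The largest losses were smaller. In TRPM1, a cation channel of retina and melanocytes, the peak went from 2515 to 582 bp and from 10.9-fold to 3.52-fold enrichment. At the promoter of IFNAR2, a chain of the type I interferon receptor, it went from 2323 to 897 bp and from 7.90-fold to 6.46-fold. In LMTK2, a kinase, it went from 1864 to 515 bp, and in ELMO1, an activator of Rac, from 1969 to 659 bp.

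Neighbouring early peaks were joined at 48 h. Of the kept 48 h peaks, 10025, or 26.1% (25.7 to 26.5%), overlapped at least 2 peaks of 12 h. The share depended on the lists, with 9.04% when both were held to −log10 q of 10 or more, 10.4% with the 20000 strongest of each and 13.4% after peaks within 1 kb had been joined in each list. The joining peaks of the full lists took in 25009, or 48.4%, of the kept 12 h peaks. The reverse, a 12 h peak overlapping at least 2 peaks of 48 h, was found for 3.47%. A median of 62.3% of the length of a joining peak was already covered at 12 h. Peaks of 8 kb or wider numbered 90 at 12 h and 678 at 48 h.

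Joining peaks had their summit in a promoter in 42.6% of cases, against 30.8% of kept 48 h peaks that overlapped 1 peak of 12 h. The most were joined over TNFRSF1B, the second receptor of tumour necrosis factor. There 16 peaks of 12 h lay under 1 peak of 26089 bp at chr1:12217373-12243461, and 75.8% of its length had been covered at 12 h. At the HOXA cluster, 13 peaks of 12 h lay under 1 peak of 35043 bp at chr7:27189787-27224829. That peak overlapped the annotated spans of HOXA3, HOXA6, HOXA7, HOXA9, HOXA10 and HOXA11, and its summit lay 426 bp from a start of HOXA10. HOXA genes hold stem and progenitor identity.

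**Figure D4:**
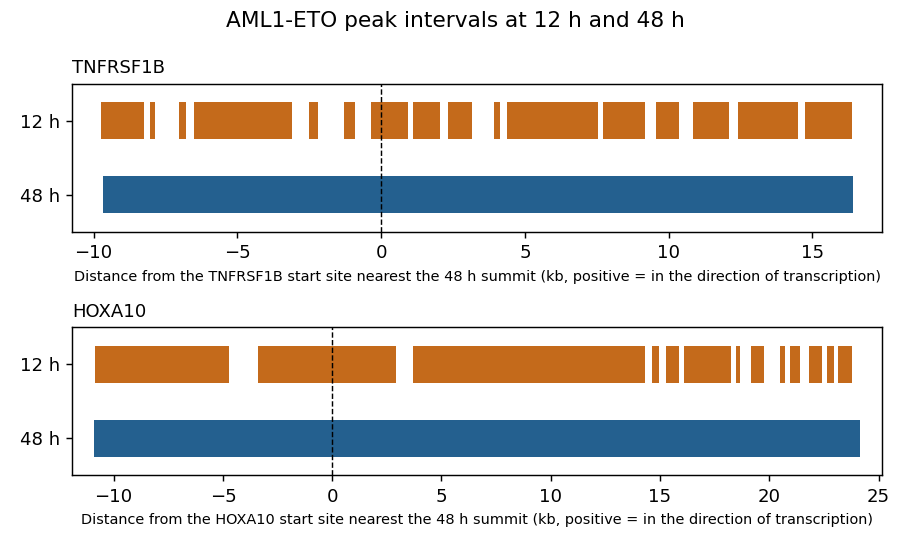
AML1-ETO peak intervals at 12 h and 48 h around TNFRSF1B and HOXA10, drawn as bars by distance from the start site nearest to the 48 h summit (kb, x axis, positive in the direction of transcription). At TNFRSF1B 16 intervals at 12 h lie under 1 at 48 h, and at HOXA10 13 lie under 1.

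Among the other peaks that joined the most were PLEC, the cytoskeletal linker plectin, with 14 peaks of 12 h under 40090 bp, and KIF21B, a kinesin, with 14 under 17704 bp. TFEB, a regulator of lysosome genes, had 12 under 18271 bp. Of the joined length, 87.4% had been covered at 12 h in PLEC and 60.5% in TFEB.

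At the level of genes, promoter binding was mostly established at 12 h. Of 19229 protein-coding genes, 53.0% had a summit within 1 kb of a start site at both times, 2.42% at 12 h only, 8.02% at 48 h only and 36.5% at neither. A changed summit did not always mean a lost peak. Of the 465 genes at 12 h only, 259 had a 12 h peak that still overlapped a 48 h peak, whose summit had come to lie elsewhere. Some genes with a promoter summit at 1 time had there a peak with −log10 q of at least 10 that overlapped nothing at the other time. They numbered 232 at 48 h and 2 at 12 h, or 1.21% and 0.0104% of all protein-coding genes.

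Among the genes with a promoter summit at both times, the strongest promoter peak was wider at 48 h in 92.8%. Where these peaks also overlapped each other, at 9270 genes, the median width went from 1158 to 2181 bp and 95.1% were wider at 48 h. Over the gene and 20 kb upstream, 93.2% of the 15420 genes with any peak had more covered bases at 48 h. The strongest peaks of the times can lie at different start sites of a gene, as at LDB1 and NFE2. Over the 13911 genes with peaks at both times, the median ratio of covered bases at 48 h to those at 12 h was 1.90. The counts in the gene lists that follow are read against these values, which hold for genes at large.

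The RUNX genes and CBFB had 1.85 times as many covered bases at 48 h as at 12 h in sum, close to the median over genes. RUNX1, the normal counterpart of the fusion, overlapped 100 peaks at 12 h and 151 at 48 h over the gene and 20 kb upstream, covering 78.8 and 129 kb. Its annotated span is long, chr21:36160098-37376965, so peak counts here compare times and not genes. RUNX3 overlapped 18 and 40 peaks, covering 14.5 and 42.7 kb, and RUNX2 28 and 50, covering 18.2 and 36.0 kb. CBFB overlapped 4 and 5 peaks. All 4 promoters were bound at both times, with a median width of 4172 bp at 12 h and 7113 bp at 48 h.

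Genes of the ETO family and its corepressors followed, with 8 of 10 promoters bound at both times by their summits and all 8 wider at 48 h. Their covered length went from 102 to 242 kb in sum, the highest ratio, 2.38, of the 13 lists. CBFA2T3, the ETO family member ETO2, overlapped 13 and 39 peaks, covering 13.9 and 37.6 kb. RUNX1T1 itself, whose sequence is part of the fusion, had no peak at 12 h and 1 of 0.204 kb at 48 h.

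Among E proteins and their partners, 7 of 10 genes had promoter summits at both times, 1 at 12 h only and 2 at neither. TCF12, the E protein HEB, had 35.2-fold enrichment at its promoter at 12 h and 62.3-fold at 48 h, and LMO2, an adaptor of haematopoietic complexes, 52.3-fold and 68.5-fold. TCF3, the E protein E2A, had 26.4-fold and 20.7-fold, with its peak going from 2001 to 4897 bp. Start sites of all 10 genes of this list were covered at both times, against 45.0% of all protein-coding genes. The promoter summit of ID2, an inhibitor of E proteins, was found at 12 h only, with its start covered at both times.

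Of the C/EBP genes, CEBPA and CEBPB had wider promoter peaks at 48 h, as had most genes. At CEBPA, the factor that directs granulocyte and monocyte fate, the peak went from 5961 to 12478 bp and from 13.7-fold to 32.4-fold enrichment. At CEBPB it went from 2244 to 9861 bp and from 7.64-fold to 31.1-fold. CEBPG, by contrast, had a peak of 4469 bp at 12 h and 4329 bp at 48 h. CEBPD had 1 weak peak at 12 h, with 3.65-fold enrichment, and none at 48 h.

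Among AP-1 genes, FOSL2 went from 4250 to 10529 bp and JUND from 3018 to 6387 bp. At JUN the promoter summit was found at 12 h only, with 12.5-fold enrichment, and at 48 h a peak covered the start but had its summit elsewhere. FOS had 3.95-fold enrichment at 12 h only by its summit, with its start covered at both times. Of the 12 C/EBP and AP-1 genes, 8 had promoter summits at both times, 3 at 12 h only and none at 48 h only.

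Among ETS factors, SPI1, or PU.1, had its start covered at both times although no summit lay within 1 kb, and 19.8 kb were covered at 12 h and 26.3 kb at 48 h. ETV6 went from 2924 to 6829 bp and ERG from 200 to 2239 bp. The myeloid repressor GFI1 went from 5946 to 11953 bp, and IRF8, a monocyte factor, from 3635 to 4928 bp. KLF2 went from 1336 to 1112 bp and EGR3 from 1036 to 333 bp, and EGR1 had its promoter summit at 12 h only, with the start covered at both times. Of the 13 regulators in this myeloid list, 11 had promoter summits at both times and 1 at 12 h only.

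**Figure D5:**
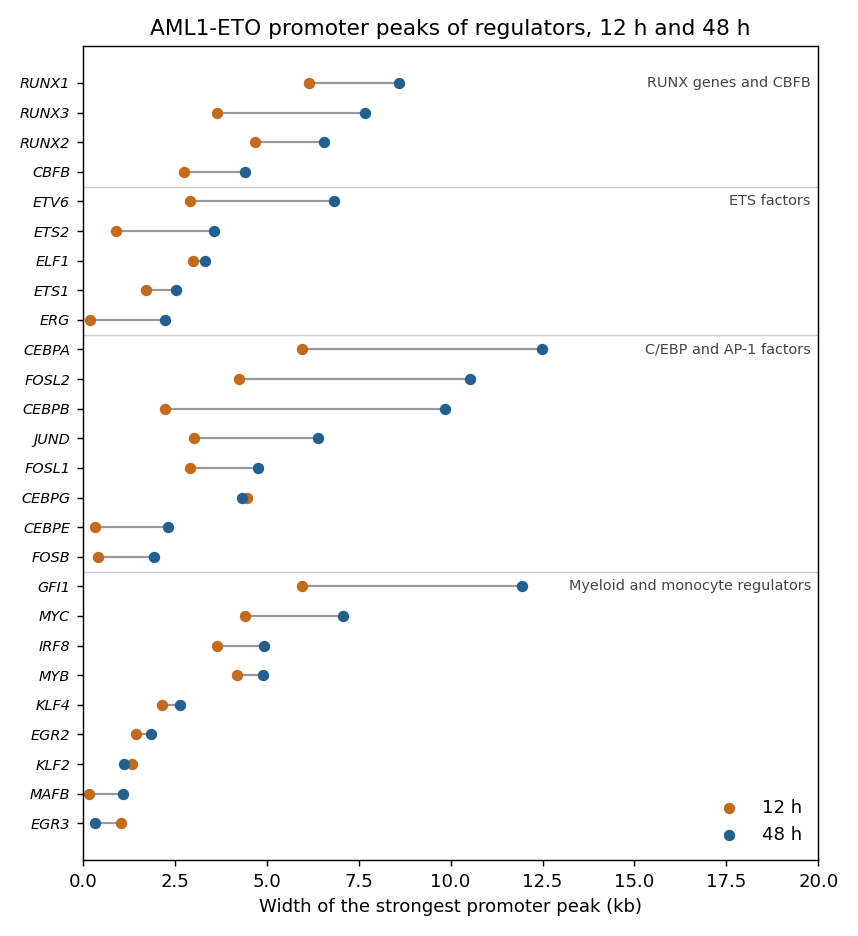
Width of the strongest promoter peak (kb, x axis) at 12 h and 48 h for 26 genes of the RUNX, ETS, C/EBP and AP-1, and myeloid regulator lists whose peaks at both times overlap each other. In 23 of the 26 the 48 h peak is the wider one, and the exceptions are CEBPG, KLF2 and EGR3.

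Stem and progenitor genes had 8 of 10 promoters bound at both times. FLT3, a receptor tyrosine kinase, went from 15.8-fold to 29.9-fold enrichment and KIT, the stem cell factor receptor, from 7.16-fold to 10.0-fold. CD34 went from 15.0-fold to 11.6-fold and from 1832 to 923 bp. The HOXA9 promoter summit was found at 12 h only, and its start lay within the joined HOXA peak at 48 h.

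Monocyte receptor genes had narrow early peaks. The median promoter width of the 11 genes bound at both times was 609 bp at 12 h and 1674 bp at 48 h. CSF1R, the macrophage growth factor receptor, overlapped 8 peaks at 12 h and 21 at 48 h, covering 8.41 and 16.1 kb. CD86, a costimulatory ligand, overlapped 5 and 16. CD14, the endotoxin coreceptor, had a weak promoter peak at 48 h only, with 4.27-fold enrichment.

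Granule protein genes were bound unevenly. CAMP, which encodes cathelicidin, had 62.6-fold enrichment at 12 h and 45.1-fold at 48 h, with its peak going from 4422 to 10497 bp. ELANE, neutrophil elastase, went from 11.5-fold to 20.7-fold. MPO, myeloperoxidase, and DEFA1, a defensin, had no peak at either time, and DEFA1 has near-identical copies.

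Of the 12 genes known from other work as AML1-ETO targets, 10 had promoter summits at both times. UBASH3B, a phosphatase that acts on signalling receptors, overlapped 27 and 61 peaks, covering 20.7 and 50.4 kb. OGG1, a DNA repair enzyme, had 52.9-fold and 78.5-fold enrichment, and CDKN1A, the p21 cell-cycle inhibitor, 45.0-fold and 38.5-fold. The 12 cell-cycle genes had 11 such promoters, all 11 wider at 48 h. The 10 apoptosis genes had 8, all wider, and the remaining BCL2A1 and BID had promoter summits at 12 h only. These 12 h peaks of BCL2A1 and BID still overlapped 48 h peaks. The start of BID was covered at both times and that of BCL2A1 at 48 h only.

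Marker genes of other tissues served as a reference list. Of 20 such genes 17 had no promoter summit at either time and 10 had no peak at all, against 36.5% and 19.8% of all protein-coding genes. GFAP had weak promoter peaks at both times. CRYAA and SOX10 had promoter summits at 48 h only, the latter with 10.5-fold enrichment.

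ETO2-GLIS2, a fusion that contains the ETO2 relative of ETO and the zinc fingers of GLIS2, gave different values in the same measures. Its lists held 28019 peaks at 12 h and 29784 at 48 h. Of these, 60.5% and 54.4% were kept, against 73.8% and 36.7% for AML1-ETO. Its one-to-one pairs were wider at 48 h in 59.5% of cases with a median ratio of 1.09, against 80.5% and 1.53. Of its kept 48 h peaks 8.25% joined at least 2 peaks of 12 h, against 26.1%. The joining share of AML1-ETO was 9.04% when its lists were held to −log10 q of 10 or more. No ETO2-GLIS2 share at that setting is given here, so the 9.04% is not set against the 8.25%. The study lists fewer reads for the 48 h than for the 12 h ETO2-GLIS2 ChIP library, the opposite of AML1-ETO. Fusion, clone, number of peaks and reads cannot be told apart here, and these values stand side by side with no test.

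The AML1-ETO classes also differed in their overlap with ETO2-GLIS2. A 48 h ETO2-GLIS2 peak overlapped 41.4% of kept AML1-ETO peaks, 2.29% of 12 h only peaks and 4.04% of 48 h only peaks. At −log10 q of at least 10 the shares were 61.7%, 6.04% (3.06 to 10.6%) and 19.9% (18.2 to 21.7%). With the 12 h ETO2-GLIS2 peaks in their place, the strong 12 h only and 48 h only peaks had 17.6% (12.3 to 23.9%) and 18.01% (16.4 to 19.7%).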

How the data were processed

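Anti-HA ChIP and input libraries came from doxycycline-treated U937 clones. Per the labels, the authors aligned reads to hg19 with Bowtie2 2.2.9, handled them with SAMtools 1.7 and called peaks against input with MACS2 2.1.1.20160309, each library on its own. The peak caller's settings and any list of excluded regions are not given in the sources used here. The deposited peak lists hold each peak's interval, a display score, the fold enrichment at the summit (a ratio to input), −log10 of the p-value, −log10 of the q-value and the summit offset. All deposited peaks had a q-value under 0.05. Read numbers were not used here, so the lists were not matched for depth.

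The members and the gene lists were chosen with earlier results of these data known. Peaks on chromosomes 1 to 22 were compared with pandas 2.3.3 and numpy 2.4.6 by an overlap of at least 1 bp. The counts of kept peaks were the same with bedtools 2.31.1, and the overlap and motif code was tested on simulated data. Summits were placed on GENCODE 44 (lifted to GRCh37) as promoter (within 1000 bp of a start site), exon, intron or intergenic. A one-to-one pair is a 12 h and a 48 h peak that overlap each other and no other peak. Sequences came from the GRCh37 assembly, and motifs were searched on both strands in 200 bp around summits, in windows 1000 bp to either side and on a 50000 bp grid. Intervals are from scipy 1.17.1. No test between times was made. Named regions are the 10 strongest of each class, the same with the summit in a protein-coding promoter, the 10 largest gains and losses of width and the 10 peaks joining the most, all chosen by value, and the 140 listed genes. Some results that fall under these rules are not reported here.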

Additional observations from a re-analysis of the deposited data

How the results depend on the processing

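With 1 library at each time, replicate spread is unknown. No paired analysis was possible because the times have 1 library each and no test was made. The lists were not matched for read depth, and its part in the results was not tested.

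The order of the classes was compared across alternatives. When both lists were held to −log10 q of 10 or more, kept shares were 93.4% at 12 h and 65.0% at 48 h, promoter shares of kept, 12 h only and 48 h only peaks 47.1%, 12.6% and 35.9%, and Runt shares 37.8%, 38.5% and 29.3%. Pairs wider at 48 h were 88.9%, the median ratio 1.59 and joining peaks 9.04%. With as many of the strongest 48 h peaks as 12 h peaks, kept shares were 69.5% and 49.96%, promoter shares of kept and 48 h only peaks 35.5% and 17.1%, Runt shares 32.4% and 22.02%, wider pairs 82.1%, the ratio 1.57 and joining peaks 28.4%. With the 20000 strongest of each list, kept shares were 87.5% and 78.3%, promoter shares 48.7%, 15.1% and 41.9%, Runt shares 37.7%, 38.7% and 29.4%, wider pairs 89.7%, the ratio 1.60 and joining peaks 10.4%.

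With an overlap of 50% of the peak required, kept shares were 66.8% and 22.5%, promoter shares 36.0%, 15.0% and 18.7%, and Runt shares of kept and 48 h only peaks 34.4% and 22.02%. With summits within 200 bp, kept shares were 39.1% and 26.2%, promoter shares 35.3%, 23.03% and 18.1%, and Runt shares of kept and 48 h only peaks 34.6% and 21.4%. With peaks within 1 kb joined, kept shares were 72.3% and 45.0% and joining peaks 13.4%. Promoters of 3 kb gave 48.6%, 33.0% and 38.8%, and protein-coding starts alone 28.4%, 9.52% and 11.6%. A 100 bp window gave Runt shares of 20.1%, 12.1% and 11.2%. Classes from the lists as deposited and then held to −log10 q of at least 10, an alternative chosen after seeing the data, gave promoter shares of 44.7%, 10.99% and 26.2% and Runt shares of 35.4%, 46.2% and 28.5%.

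By summits within 200 bp the promoter share of 12 h only peaks exceeded that of 48 h only peaks, and in the Runt shares 12 h only peaks exceeded kept peaks wherever lists were held to strong peaks. The cause was not tested.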
